A study of Homo sapiens with 22 samples.

Results

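Fibronectin and its cell-surface receptors, the integrins, were followed through melanoma cells that differ in their readiness to survive targeted therapy. The members are 10 genes chosen by symbol, FN1 for fibronectin and the integrin subunits ITGA2, ITGA3, ITGA4, ITGA5, ITGA10, ITGA11, ITGAV, ITGB1 and ITGB3. They were chosen with earlier results of these data known. All 10 were present among the 33538 genes of the first experiment and the 36601 genes of the 2 others. Fibronectin is a secreted glycoprotein that cells assemble into fibrils of the extracellular matrix. An integrin is a pair of 1 alpha and 1 beta subunit that spans the membrane, binds a matrix protein outside and links to talin, kindlin and the actin cytoskeleton inside. ITGB1 pairs with most of the alpha subunits listed here and ITGB3 pairs with ITGAV. ITGA5, ITGAV and ITGA4 form receptors that bind fibronectin, ITGA2, ITGA10 and ITGA11 form collagen receptors, and ITGA3 forms a laminin receptor. FN1 and several integrins are textbook targets of TGF-β signaling and rise when epithelial cells take on mesenchymal traits.

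The study profiled WM989, a BRAF-mutated human melanoma cell line, by droplet scRNA-seq in 2 experiments, a further melanoma line, WM983B (cell line label WM983), by scRNA-seq in a single library, and WM989 by ATAC-seq in 12 libraries. All cells were free of BRAF and MEK inhibitors. The first experiment holds 12531 untreated WM989 cells that carried a lentiviral barcode library, in 8 wells of a 10x chip (4 of replicate r1 and 4 of replicate r2). The chip was loaded with a mixed sort and a sort high for EGFR and NGFR. By the methods the cells of each sorted culture were divided over 2 wells, so wells that share a culture are not independent. The treatment experiment holds 40021 WM989 cells in 8 libraries, and by the paper these cells were barcoded too. There are 2 libraries each for untreated cells and for cells given TGFB1 (the cytokine TGF-β1), TGFBRi (a TGF-β receptor inhibitor) or PI3Ki (a PI3K inhibitor). The sample labels within each such pair differ, reading Mix and Primed. The paper describes the pair as replicates carried in parallel, and what these labels stand for is not settled. In the ATAC-seq experiment 3 libraries each came from the sort labelled Mix, the reference here, and from sorts for high EGFR (EGFR-High), high NGFR (NGFR-High) or both (EGFR-NGFR-High). The study's methods describe the reference sort of this assay as negative for both markers, the labels call it Mix, and which of these it was is not settled, so every ATAC-seq difference is against the libraries labelled Mix. The authors' cell labels class each cell as primed, the rare state that is more likely to become resistant, or as drug-susceptible. Levels are given as CPM, that is UMIs of the gene per 1000000 UMIs of the same cells. The reads tag the 3′ end of a transcript, so these CPM are not divided by gene length and are compared within a gene and not between genes.

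Wells of the first experiment held 408 to 3841 cells and 35882876 to 177318308 UMIs, and libraries of the treatment experiment 3692 to 6273 cells and 70239657 to 122420544 UMIs. Cell barcodes found in more than 1 library numbered 19 in the first and 194 in the treatment experiment, at most 13 in a pair. All 8 melanocytic markers looked for were at 1 CPM or more in each of the 3 experiments, and they summed to 5456 CPM in drug-susceptible and 274 CPM in primed cells of the first experiment. Of 5 leukocyte markers 1 (CD68) reached 1 CPM. The 5 fibroblast markers summed to 36.9 CPM in drug-susceptible and 244 CPM in primed cells of the first experiment, and none of them was at 0. Endothelial markers summed to 0.65 and 25.5 CPM in the same classes.

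The sequences below are those of the FN1 start and of 3 member regions that the results describe, and the regions were chosen by their peak pattern, which the members' regions held at a share near that of all regions. The FN1 start lies on chromosome 2 of hg38 at 215436068 on the minus strand, in a gene of 75204 bases. FN1 is the 1 member whose start passed the test of open chromatin in a marker-high sort, a call that was lost without any 1 Mix library and with the 50000 highest-ranked peaks. The 250 bases before that start (RefSeq, GRCh38.p14, chr2:215436069-215436318, minus strand) are shown with the letters TGACGTCA, the cAMP response element, in capitals. This element begins 183 bases before the start, and 1.65% of 35116 RefSeq promoter windows of the same length hold it on either strand. The window also holds 6 matches of the GC box GGGCGG, some of which overlap each other, a motif found in 42.6% of windows, and no match of the AP-1 site TGANTCA, found in 6.57%.
FN1 upstream: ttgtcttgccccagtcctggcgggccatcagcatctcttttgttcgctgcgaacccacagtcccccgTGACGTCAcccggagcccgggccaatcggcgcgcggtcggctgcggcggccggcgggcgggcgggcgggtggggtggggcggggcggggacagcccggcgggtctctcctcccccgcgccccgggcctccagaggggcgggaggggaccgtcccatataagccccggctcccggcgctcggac
The 3 sequences that follow are the middle 300 bases, on the plus strand of hg38, of ATAC-seq regions near ITGA3, ITGA5 and ITGA11 that carried a called peak in all 3 EGFR-NGFR-High libraries and in no Mix library. Matches of the AP-1 site TGANTCA, which reads the same on both strands, are in capitals. The ITGA3 region (chr17:50047529-50047828) lies upstream of the gene, the ITGA5 region (chr12:54423185-54423484) lies upstream of the gene within the long noncoding RNA gene GPR84-AS1, and the ITGA11 region (chr15:68354970-68355269) lies in an intron.
ITGA3 upstream region: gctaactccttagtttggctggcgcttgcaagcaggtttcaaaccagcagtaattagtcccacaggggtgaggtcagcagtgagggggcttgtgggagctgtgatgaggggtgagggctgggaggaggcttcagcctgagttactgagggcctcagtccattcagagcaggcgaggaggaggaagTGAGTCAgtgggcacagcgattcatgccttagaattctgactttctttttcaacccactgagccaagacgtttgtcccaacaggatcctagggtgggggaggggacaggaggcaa
ITGA5 upstream region: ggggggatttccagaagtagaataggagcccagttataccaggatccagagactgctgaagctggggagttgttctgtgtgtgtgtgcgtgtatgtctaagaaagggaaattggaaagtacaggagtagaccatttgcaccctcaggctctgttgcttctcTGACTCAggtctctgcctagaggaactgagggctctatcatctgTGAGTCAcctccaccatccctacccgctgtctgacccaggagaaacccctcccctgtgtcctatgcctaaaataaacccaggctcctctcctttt
ITGA11 intron region: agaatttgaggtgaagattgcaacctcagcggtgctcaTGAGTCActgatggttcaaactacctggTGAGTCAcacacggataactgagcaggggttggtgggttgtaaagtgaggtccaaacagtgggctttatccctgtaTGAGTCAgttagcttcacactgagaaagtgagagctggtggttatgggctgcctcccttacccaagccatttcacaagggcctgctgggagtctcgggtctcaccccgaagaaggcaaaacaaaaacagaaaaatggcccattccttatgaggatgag

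In untreated WM989 cells, 8 of the 10 members were at least 2-fold higher in primed than in drug-susceptible cells, and ITGAV and ITGA4 were not. Among all 13194 genes with at least 1 CPM in either class, 13.7% were at least 2-fold higher in primed cells and 7.91% at least 2-fold lower. The median log2 ratio was 2.5 over the members and 0.07 over all these genes. The classes were clustered from these same counts, and the sort loaded into each well is not in the cell labels, so the levels are a description and no test was made. The members were chosen with earlier results of these data known, so their count beside that of all genes is a description too. Counts of wells below are over wells that in part share a culture.

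FN1, the ligand, had 98.7 CPM in drug-susceptible and 3771 CPM in primed cells, a ratio of 38.2. Its primed level lay between 2777 and 5047 CPM over the 8 wells and its drug-susceptible level between 41.4 and 480 CPM, so the classes did not overlap in any pair of wells. ITGA5, the alpha subunit of the classical fibronectin receptor, had 7.57 and 58.2 CPM, a ratio of 7.69. ITGB1, its partner, had 69.0 and 286 CPM, a ratio of 4.15. Both were higher in primed cells in 8 of 8 wells.

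ITGB3, the partner of ITGAV in an RGD-binding receptor, had 13.9 CPM in drug-susceptible and 40.4 CPM in primed cells, a ratio of 2.91. ITGAV went the other way, with 22.1 and 19.3 CPM, and was higher in primed cells in 1 of 8 wells. ITGA4, whose receptor binds fibronectin and VCAM1, had 22.8 and 14.8 CPM and was lower in primed cells in all 8 wells. The subunits that pair with ITGB1 or ITGB3 therefore did not share 1 pattern over the classes.

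The collagen receptor subunits held the widest range of ratios. ITGA11 had 0.30 CPM in drug-susceptible and 40.6 CPM in primed cells, a ratio of 135, and its drug-susceptible level lay between 0.19 and 1.60 CPM over the wells. ITGA2 had 4.77 and 106 CPM, a ratio of 22.3. ITGA10 had 15.3 and 57.2 CPM, a ratio of 3.73. ITGA3, the laminin receptor subunit, had 13.8 and 233 CPM, a ratio of 16.9. Averaging the 8 wells equally lowered the ratio of FN1 to 18.1 and that of ITGA11 to 59.6, and left 8 members at 2-fold or more.

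Within the classes the clusters differed. Of the 3 primed clusters, cluster 2 had the highest level of FN1 (4131 CPM), ITGA2 (129 CPM), ITGA10 (66.3 CPM) and ITGA11 (52.6 CPM). Cluster 9 had the highest level of ITGA5 (73.5 CPM) and ITGB1 (356 CPM), and cluster 8 was the lowest for 9 of the 10 members, ITGAV being the exception with 20.5 CPM. Cluster 4 stood apart among drug-susceptible clusters, with 328 CPM of FN1 against 49.1 to 101 CPM in the 7 others. Cluster 4 did not stand apart in the same way for ITGA5, ITGA11 or ITGB1. ITGA10 split the drug-susceptible clusters, with 5.19 to 7.80 CPM in clusters 5, 6 and 7 and 16.9 to 20.02 CPM in the 5 others.

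**Figure D1:**
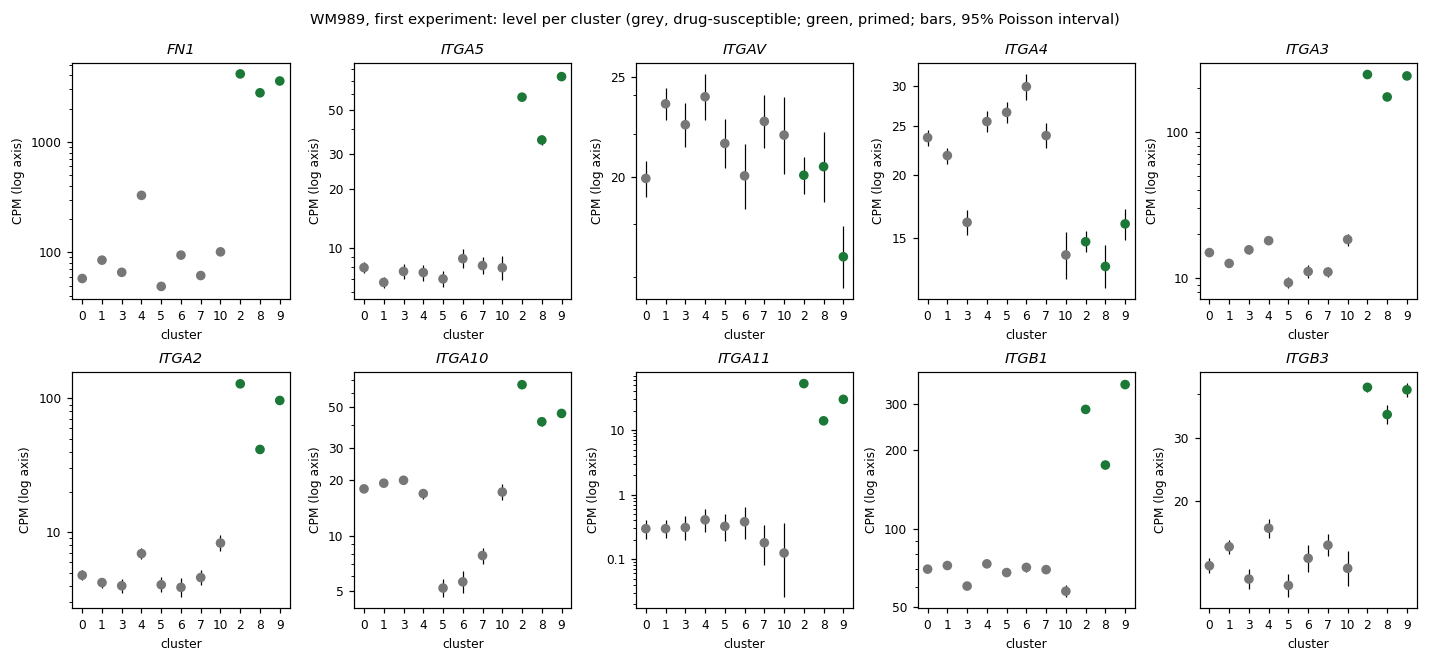
CPM (log axis) of each member in the 11 clusters of untreated WM989 cells, drug-susceptible clusters in grey and primed clusters 2, 8 and 9 in green, with 95% Poisson intervals that cover counting error only. ITGA11 sits at 0.12 to 0.41 CPM in grey and 13.9 to 52.6 CPM in green clusters, while the ITGAV and ITGA4 clusters of the classes overlap.

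The wells differed in how many primed cells they held, and the drug-susceptible level of FN1 moved with that share within each replicate. In r1, wells 1 and 2 (56.9 and 62.4% primed cells) had 245 and 217 CPM of FN1 in their drug-susceptible cells and wells 3 and 4 (7.87 and 6.85%) had 41.9 and 41.4 CPM. In r2, wells 5 and 6 (79.7 and 76.9%) had 480 and 368 CPM and wells 7 and 8 (9.17 and 9.42%) had 102 and 96.0 CPM. ITGB3 moved the same way, with 16.4 and 16.9 against 7.83 and 8.60 CPM in r1 and 27.1 and 25.9 against 19.8 and 19.2 CPM in r2. ITGA10 moved the other way, with 11.9 and 11.1 against 21.3 and 20.4 CPM in r1 and 2.33 and 2.74 against 10.7 and 9.76 CPM in r2. Taken as a percent of the primed level of the same well, the drug-susceptible level was 1.28 to 9.50% for FN1 and 0.65 to 3.32% for ITGA11, and the percents of the genes differed within a well. The same wells, in the same order, also differed in other ways. In r1, cluster 4 held 43 of 194 and 176 of 639 drug-susceptible cells against 178 of 1475 and 418 of 3578. In r2 it held 15 of 83 and 21 of 134 against 177 of 1941 and 174 of 1644. Median UMIs per drug-susceptible cell were 95345.5 and 72693 against 78291 and 46092.5 in r1. In r2 they were 134402 and 116334 against 54402 and 48364. Over all cells of a well, the median mitochondrial share was 9.86 and 9.96% against 14.7 and 15.7% in r1 and 7.23 and 7.78% against 11.6 and 11.2% in r2. The share of all cells in G1 was 55.1 and 60.8% against 34.7 and 30.3% in r1 and 63.5 and 61.1% against 24.1 and 24.1% in r2. These 2 shares include the primed cells. Over the experiment 2095 of 2843 primed and 2473 of 9688 drug-susceptible cells were in G1, so the G1 share of a well moves with its primed share. By the methods each culture filled 2 wells, so these wells are not independent. The cultures also differed in their starting sort, mixed or high for EGFR and NGFR, and no label tells which culture a well received. The paper describes lineages that switched out of the primed state. Drug-susceptible cells of a marker-high culture can therefore descend from primed cells. The part of this origin in the levels was not tested. Nor was that of the primed, mitochondrial and G1 shares, of cluster 4, of depth or of RNA from primed cells of the same well.

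Over the 11 clusters the genes most like FN1 were MMP2 (Pearson's r of log2(CPM + 1) of 0.996), RRAS, IGFBP7, SPP1 and COL6A2, out of 7021 genes with at least 20 CPM in a cluster. For ITGB3 they were LOXL2 (0.995), TMEM255B, DPYSL2, COL6A1 and COL6A2. Over the 13 clusters of the treatment experiment, r with FN1 was still 0.992 for MMP2, and r with ITGB3 was 0.72 for LOXL2. The points are clusters of the same cells that share wells and depth, and these values are descriptions.

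The untreated libraries of the treatment experiment gave the classes a second time, with 94 and 165 primed cells in r1 and r2. FN1 was at 43.7 and 52.1 CPM in drug-susceptible and 3310 and 3634 CPM in primed cells, and ITGA11 at 0.30 and 0.35 against 11.9 and 13.7 CPM. ITGA10 was at 36.3 and 26.6 against 102 and 86.1 CPM and ITGB3 at 16.6 and 24.1 against 43.97 and 41.5 CPM. ITGA4 (45.3 and 47.7 against 32.8 and 30.2 CPM) and ITGAV (23.1 and 24.9 against 19.4 and 18.9 CPM) were again lower in primed cells in both libraries. These classes too were clustered from the same counts.

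WM983B was read in a single library, with 718 drug-susceptible cells (clusters 1 and 3) and 731 primed cells (clusters 0 and 2). The classes differed less than in WM989 by the size of the log2 ratio for 9 of the 10 members, ITGAV being the exception (0.25 against -0.19), and for 80.4% of the 11947 genes that could be compared, so the count says nothing particular to the members. Of the 10 members, 3 were at least 2-fold higher in the primed class and 0 at least 2-fold lower. Among 13769 genes, 2.87% were at least 2-fold higher and 1.37% at least 2-fold lower. The median log2 ratio was 0.73 over the members and 0.06 over all genes. The 3 members past 2-fold were ITGA10 (4.62 and 11.4 CPM), ITGA3 (19.7 and 48.1 CPM) and ITGA5 (17.7 and 39.7 CPM). FN1 was abundant in both classes, with 602 CPM in drug-susceptible and 1023 CPM in primed cells, a ratio of 1.70. ITGA11 was near 1 CPM in both, with 0.87 and 1.04 CPM. ITGA4, lower in primed WM989 cells, had 74.3 and 103 CPM here, and ITGB3 had 23.3 and 37.6 CPM.

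Cluster 2, with 91 cells, held the upper end of several receptor subunits in WM983B. ITGA10 was at 36.0 CPM (95% Poisson interval 31.5 to 40.9) there and at 7.67 CPM in the other primed cluster. ITGB3 was at 60.8 and 34.1 CPM and ITGA5 at 60.6 and 36.6 CPM in the same clusters. ITGA4 ran against them, with 82.0 CPM in cluster 2 and 107 CPM in cluster 0. With 1 library there was no replicate check.

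The treatment experiment asked how TGF-β1 and the inhibitors of its receptor and of PI3K move cells between the states. The primed share was 2.26% and 4.47% in untreated libraries r1 and r2, 29.1% and 31.3% with TGFB1, 2.26% and 4.32% with TGFBRi, and 0.65% and 1.21% with PI3Ki. A change in all cells of a library therefore mixes a change of class shares with a change within a class, and each is given below. Counts summed per library were tested with edgeR's quasi-likelihood test with Benjamini-Hochberg adjustment over all genes at a threshold of 0.05, with replicate as a term. By the methods 2 wells of sorted cells were carried in parallel and each was split over the 4 treatments. The sample labels name the 2 libraries of a treatment Mix and Primed. The p-values measure the spread between these libraries only. All 10 members passed the filter on low counts in all cells and in each class.

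With TGFB1, 7 of the 10 members rose in all cells and none fell, where 29.0% of 18389 genes were called in either direction (16.3% as higher and 12.7% as lower). The median log2 fold change was 1.15 over the members and 0.01 over all genes tested. FN1 was at 99.9 and 163 CPM in the untreated libraries and at 2668 and 2798 CPM with TGFB1. This was a 21.4-fold rise (log2 4.42, SE 0.13, adjusted p = 7.25e-17 by edgeR). ITGA11 was at 0.50 and 0.76 CPM and rose to 8.16 and 7.47 CPM, 12.3-fold (log2 3.62, SE 0.16, adjusted p = 7.61e-14). For both genes the 2 TGFB1 libraries lay far above every other library.

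The receptor subunits other than ITGA11 rose less. ITGA3 went from 16.8 and 22.2 CPM to 50.2 and 65.8 CPM (log2 1.56, SE 0.09), ITGA5 from 7.06 and 7.90 CPM to 17.6 and 20.6 CPM (log2 1.34, SE 0.09) and ITGA2 from 5.92 and 7.14 CPM to 13.5 and 18.4 CPM (log2 1.27, SE 0.09). ITGB1 went from 138 and 145 CPM to 275 and 312 CPM (log2 1.04, SE 0.07). ITGB3 went from 17.0 and 24.6 CPM to 34.4 and 42.0 CPM (log2 0.88, SE 0.08), and its untreated and TGFB1 libraries did not overlap either. The subunits that did not pass were ITGAV (23.1 and 24.7 against 23.7 and 26.7 CPM), ITGA10 (37.4 and 28.4 against 34.9 and 34.7 CPM) and ITGA4 (45.0 and 47.2 against 54.8 and 50.6 CPM, log2 0.18, adjusted p = 0.053, which passed without either TGFBRi library or untreated r2 at 0.019 to 0.037).

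**Figure D2:**
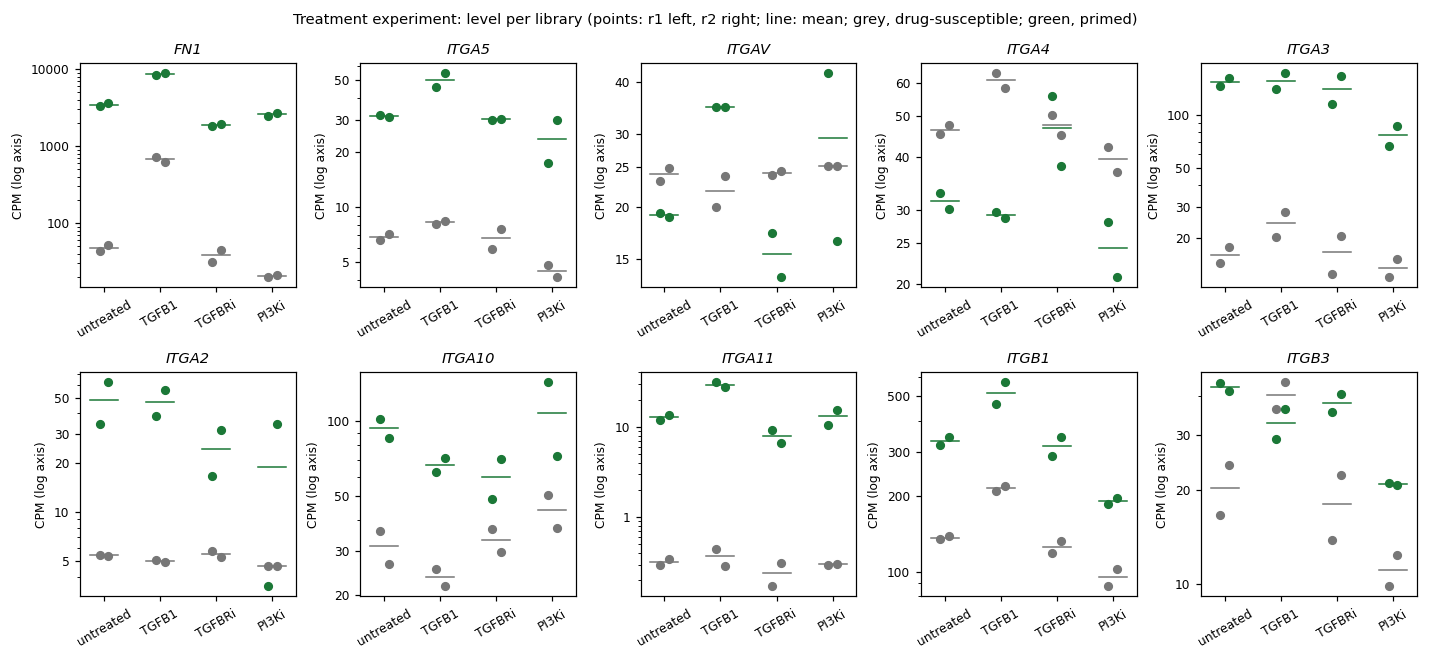
CPM (log axis) of each member in drug-susceptible (grey) and primed (green) cells of the 8 libraries, with r1 left, r2 right and a line at the mean of the 2. FN1 in drug-susceptible cells lies at 630 and 715 CPM with TGFB1 against 43.7 and 52.1 CPM untreated, and ITGB3 with TGFB1 lies at 36.2 and 44.1 CPM in drug-susceptible against 29.1 and 36.3 CPM in primed cells.

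Within drug-susceptible cells TGFB1 raised 5 members and lowered 1, where 14.9% of 17914 genes were called (8.56% as higher and 6.32% as lower). FN1 went from 43.7 and 52.1 CPM to 715 and 630 CPM, a 14.1-fold rise (log2 3.81, SE 0.11, adjusted p = 5.68e-17 by edgeR). ITGB3 went from 16.6 and 24.1 CPM to 36.2 and 44.1 CPM (log2 0.98, SE 0.08, adjusted p = 5.03e-09). ITGB1 (log2 0.64), ITGA3 (0.56) and ITGA4 (0.37) rose as well. ITGA10 fell by 0.42 on the log2 scale, from 36.3 and 26.6 CPM to 25.6 and 21.7 CPM. Over 13 alternative fits its log2 fold change lay between -0.48 and -0.35, and the call was lost in 1 of them. The call of ITGA3 was lost in 2 of the 13. ITGA11 stayed below 1 CPM, with 0.45 and 0.29 CPM against 0.30 and 0.35 CPM untreated, and ITGA5, ITGA2 and ITGAV did not pass. The call of ITGA4 was lost without untreated r1 (adjusted p = 0.082).

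Cluster 3 held 49.4% of the drug-susceptible cells of the TGFB1 libraries and 1.52% of the untreated ones. Without cluster 3 the FN1 rise was 2.74 on the log2 scale, ITGB3 0.91 and ITGB1 0.40, all still called, while ITGA3 (0.16, adjusted p = 0.37) and ITGA4 (0.12, adjusted p = 0.33) were no longer called. Cluster by cluster, FN1 was higher with TGFB1 in 11 of 11 drug-susceptible clusters, by 1.32 to 6.40 times, and ITGB3 in 11 of 11, by 1.47 to 3.05 times. ITGB1 was higher in 10 of 11. The clusters are parts of the same libraries and not replicates, and the share of all genes higher in every cluster was not computed. Some held few cells, with 6 TGFB1 and 9 untreated cells in cluster 11, 23 and 36 in cluster 12, and 31 and 168 in cluster 6. Cluster 3 had 947 CPM of FN1 in the 115 untreated cells it held, against 29.8 CPM in untreated cells of cluster 0, and 1249 CPM in its TGFB1 cells. Because the clusters were made from these same counts, treated cells included, the untreated cells of cluster 3 were in part chosen by such levels.

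The drug-susceptible FN1 level was 8.44% and 7.12% of the primed level of the same TGFB1 library, against 1.32% and 1.43% in the untreated libraries. For ITGA11 these were 1.45% and 1.05% against 2.51% and 2.54%. The percent was thus higher with TGFB1 for FN1 and lower for ITGA11 in both libraries. For FN1 both levels were higher with TGFB1, and cluster 3 held 49.4% of the drug-susceptible cells there. For ITGA11 the primed level, given below, was higher with TGFB1, while its drug-susceptible level stayed below 1 CPM on few UMIs. The part of the clusters in these percents was not tested. The 5 fibroblast markers summed to 89.0 and 90.5 CPM over all cells with TGFB1 and to 31.9 and 33.1 CPM untreated. COL1A1, a TGF-β target in many cells, is among them, 3 of the 5 were at 1 CPM or more over the experiment, none was at 0, and their part in the result was not tested.

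Within primed cells TGFB1 raised 5 members and lowered none, where 13.3% of 10930 genes were called (6.21% as higher and 7.09% as lower). FN1 went from 3310 and 3634 CPM to 8474 and 8855 CPM (log2 1.40, SE 0.13, adjusted p = 2.36e-11 by edgeR). ITGA11 went from 11.9 and 13.7 CPM to 31.1 and 27.6 CPM (log2 1.23, SE 0.22, adjusted p = 4.17e-05). ITGAV, which did not pass in all cells, went from 19.4 and 18.9 CPM to 34.8 and 34.9 CPM (log2 0.94, SE 0.20, adjusted p = 0.00055). ITGA5 (log2 0.77) and ITGB1 (0.72) rose too. ITGA3 (0.11) and ITGA2 (0.07) did not pass, although both had risen in all cells, and ITGB3 was at 29.1 and 36.3 CPM against 43.97 and 41.5 CPM (log2 -0.28, adjusted p = 0.29).

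The primed class was not the same set of clusters in both treatments. With TGFB1, 3254 of 3334 primed cells lay in cluster 4, while 248 of 259 untreated primed cells lay in cluster 10. The clusters were made from these same counts, treated cells included, so the counts in part set which TGFB1 cells lie in cluster 10. The cluster 10 values below therefore describe the cells left there and cannot measure the TGFB1 effect on primed cells. In cluster 10 alone, an alternative chosen after seeing the data, the TGFB1 difference turned negative for FN1 (log2 -1.20, adjusted p = 0.00033), ITGA3 (-1.37, adjusted p = 0.00055) and ITGA2 (-2.69, adjusted p = 0.00035), which were called lower, and no member was called higher, where 2.71% of 9481 genes were called (1.04% as higher and 1.67% as lower). Of the other members called higher in the whole primed class, ITGA11 (-2.65, adjusted p = 0.099), ITGA5 (-0.95, 0.20), ITGB1 (-0.18, 0.73) and ITGAV (-0.11, 0.96) turned negative there as well and did not pass. ITGB3, not called in either, was at 0.41 (adjusted p = 0.54) there. FN1 was at 1416 CPM in the 80 TGFB1 cells of cluster 10, 3431 CPM in its 248 untreated cells, 8844 CPM in the TGFB1 cells of cluster 4 and 5192 CPM in the 11 untreated cells of cluster 4. Without TGFB1 replicate r2 the calls of ITGA5 (adjusted p = 0.079) and ITGAV (adjusted p = 0.12) were lost and 3 members were called, and without untreated replicate r2 the call of ITGA5 was lost (adjusted p = 0.22).

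**Figure D3:**
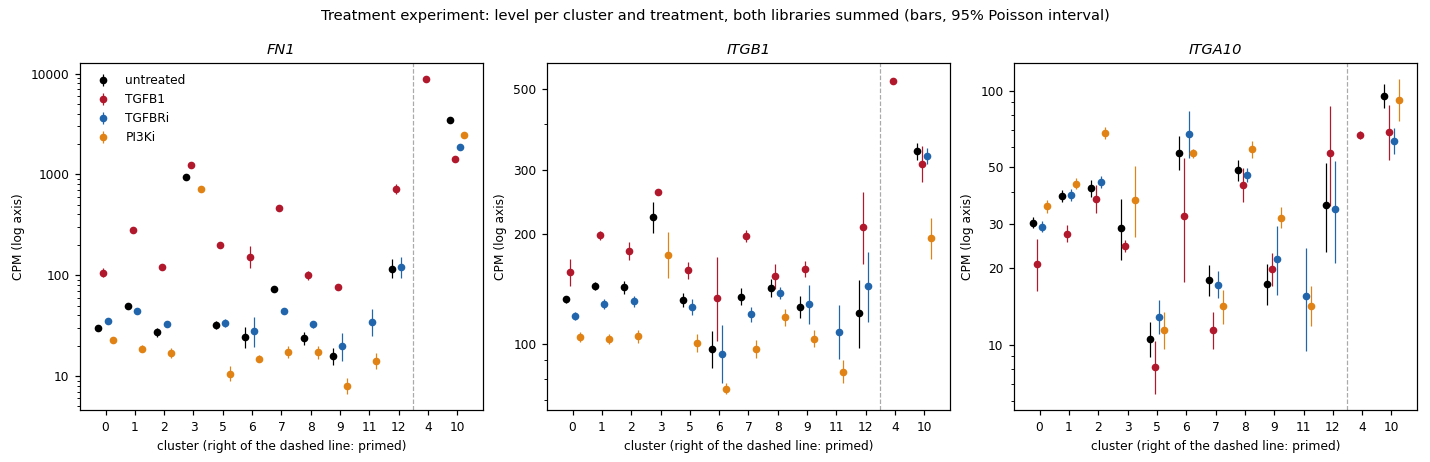
CPM (log axis) of FN1, ITGB1 and ITGA10 per cluster and treatment with both libraries summed, for groups of at least 20 cells and 3 UMIs, with 95% Poisson intervals. The TGFB1 points of FN1 lie above the untreated ones in drug-susceptible clusters (left of the dashed line) and below them in primed cluster 10 (1416 against 3431 CPM), and the PI3Ki points of ITGB1 are the lowest in most clusters.

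The TGFB1 effect itself differed between the classes for 6 of the 10 members, in an edgeR test of the interaction with library as a block in which 9.98% of 18502 genes were called (5.49% as larger and 4.49% as smaller in primed cells). The effect was larger in drug-susceptible cells for FN1 (difference of log2 fold changes -2.32, SE 0.09), ITGB3 (-1.12, SE 0.16) and ITGA3 (-0.37, SE 0.11). It was larger in primed cells for ITGAV (1.19, SE 0.18), ITGA11 (1.18, SE 0.41) and ITGA5 (0.59, SE 0.17). These differences set mostly cluster 4 cells with TGFB1 against mostly cluster 10 cells without it. The clusters were made from these same counts, so the cluster 10 values that follow describe the cells left there. With cluster 10 as the primed class, an alternative chosen after seeing the data, 2.77% of 17951 genes were called (1.0% as larger and 1.77% as smaller in primed cells), no member was called as larger in primed cells, and the difference turned negative for ITGA11 (-2.77, adjusted p = 0.23) and ITGA5 (-1.19, 0.14). There ITGAV (0.033, adjusted p = 1) and ITGB3 (-0.54, 0.46) were not called either, and FN1 (-5.01), ITGA2 (-2.48), ITGA3 (-1.92) and ITGB1 (-0.79) were called as smaller in primed cells. The calls of ITGA3 and ITGA11 were lost without either TGFB1 or either untreated library, with adjusted p between 0.10 and 0.51, and that of ITGA5 without TGFB1 r2 (0.33) or untreated r2 (0.25). FN1, ITGB3 and ITGAV kept their calls without any 1 library. edgeR's estimate of the prior degrees of freedom was infinite in this fit, so these p-values rest on a spread pooled over all genes. With limma-voom, chosen after seeing the data, FN1, ITGB3 and ITGAV were called (adjusted p = 2.49e-06, 0.0085 and 0.033) and ITGA3 (0.10), ITGA11 (0.17) and ITGA5 (0.18) were not.

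With TGFBRi, FN1 was the 1 member that changed in all cells, where 2.53% of 18389 genes were called (1.09% as higher and 1.45% as lower). FN1 was at 63.8 and 110 CPM against 99.9 and 163 CPM, lower in each replicate while the groups overlapped. The level was 1.5-fold lower (log2 -0.59, SE 0.12, adjusted p = 0.0050 by edgeR). The call was lost without TGFBRi r1 (adjusted p = 0.054), without untreated r2 (0.16), by DESeq2 (0.71) and without the replicate term (0.60). Log2 fold changes of the 9 integrin subunits lay between -0.52 (ITGA11) and 0.07 (ITGA10).

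In drug-susceptible cells TGFBRi changed no member by edgeR or DESeq2, where edgeR called 2.81% of 17914 genes (1.22% as higher and 1.59% as lower). FN1 was at 31.3 and 44.9 CPM against 43.7 and 52.1 CPM (log2 -0.32, adjusted p = 0.13 by edgeR). The adjusted p passed the threshold without TGFB1 r1 (0.037), TGFB1 r2 (0.035) or TGFBRi r2 (0.000292). Without cluster 3, which held 0.14% of TGFBRi and 1.52% of untreated drug-susceptible cells, the FN1 difference was 0.011. Cluster by cluster FN1 was higher with TGFBRi in 9 of 11 drug-susceptible clusters, with a median ratio of 1.18. These too are parts of the same libraries, and the share of all genes was not computed. Cluster 3 held 16 TGFBRi cells and cluster 11 held 9 untreated cells. In primed cells TGFBRi lowered FN1 and ITGA2, where 0.375% of 10930 genes were called (0.0732% as higher and 0.302% as lower). FN1 went from 3310 and 3634 CPM to 1822 and 1911 CPM (log2 -0.90, SE 0.13, adjusted p = 2.60e-05), and the groups were far apart. In cluster 10 alone, which held all 389 TGFBRi primed cells, the FN1 difference was -0.86 and no longer called (adjusted p = 0.11). ITGA2 was at 16.7 and 31.7 CPM against 34.3 and 62.0 CPM (log2 -0.97, adjusted p = 0.019), a call lost without TGFBRi r1 (0.077), TGFBRi r2 (0.14) or untreated r2 (0.58).

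With PI3Ki, 6 members fell and 1 rose in all cells, where 12.7% of 18389 genes were called (5.83% as higher and 6.83% as lower). FN1 was at 29.8 and 42.4 CPM against 99.9 and 163 CPM, 3.35-fold lower (log2 -1.74, SE 0.12, adjusted p = 1.40e-09 by edgeR). ITGB3 was at 9.89 and 12.5 CPM against 17.0 and 24.6 CPM (log2 -0.79, SE 0.09). ITGA5 (log2 -0.62), ITGB1 (-0.46), ITGA3 (-0.37) and ITGA2 (-0.35) fell as well. For ITGA10 the difference was positive, with 51.0 and 37.6 CPM against 37.4 and 28.4 CPM (log2 0.52, SE 0.08, adjusted p = 6.91e-05). ITGAV, ITGA4 and ITGA11 did not pass. Without PI3Ki r2, ITGA5 (adjusted p = 0.062), ITGA3 (0.19) and ITGA2 (0.30) lost their calls, ITGA3 also without untreated r1 (0.10) and ITGA2 also without PI3Ki r1 (0.051), untreated r1 (0.063) or untreated r2 (0.16). Without the replicate term 3 members were called, FN1, ITGA5 and ITGB1, and ITGB3 (adjusted p = 0.065), ITGA10 (0.093), ITGA2 (0.19) and ITGA3 (0.45) were not. The share of all genes called without this term is not given here.

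Within drug-susceptible cells PI3Ki lowered 4 members and raised 1, where 12.1% of 17914 genes were called (5.89% as higher and 6.22% as lower). FN1 was at 19.9 and 21.3 CPM against 43.7 and 52.1 CPM, 2.17-fold lower (log2 -1.12, SE 0.11, adjusted p = 2.28e-07 by edgeR). ITGB3 fell by 0.76, ITGA5 by 0.55 and ITGB1 by 0.42 on the log2 scale, and ITGA10 rose by 0.58. ITGA3 (log2 -0.15, adjusted p = 0.28) and ITGA2 (-0.11, adjusted p = 0.50), lower in all cells, did not pass here. In every drug-susceptible cluster that could be compared, FN1 (11 of 11), ITGB1 (11 of 11), ITGA3 (11 of 11) and ITGB3 (10 of 10) were lower with PI3Ki than untreated. These clusters are parts of the same libraries and not replicates, and cluster 11 held 9 untreated cells. The share of all genes lower in every cluster was not computed. For ITGA3 the ratio reached 0.97. The ratio lay between 0.71 and 0.83 for ITGB1 and between 0.18 and 0.78 for FN1. ITGA10 was higher in 9 of 11. The median ratio over clusters was 1.18 for ITGA10, 0.61 for FN1, 0.60 for ITGB3, 0.68 for ITGA5 and 0.79 for ITGB1. Cluster 6 held 2239 of 9546 PI3Ki and 168 of 7585 untreated drug-susceptible cells. Over all treatments it had the highest ITGA10 level of the drug-susceptible clusters (56.9 CPM) and the lowest of FN1 (17.2 CPM) and ITGB1 (77.9 CPM). The part of this shift between clusters in the differences of the class was not tested. The call of ITGA5 was lost without PI3Ki r2 (adjusted p = 0.16), and those of ITGB3 (0.070) and ITGA10 (0.099) without the replicate term.

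In primed cells PI3Ki lowered 5 members, where 1.78% of 10930 genes were called (0.467% as higher and 1.32% as lower), on 25 cells in r1 and 70 cells in r2. ITGB3 was at 21.0 and 20.7 CPM against 43.97 and 41.5 CPM (log2 -1.10, SE 0.30, adjusted p = 0.042 by edgeR). ITGB1 was at 186 and 197 CPM against 319 and 344 CPM (log2 -0.86, SE 0.15, adjusted p = 0.00059) and ITGA3 at 66.6 and 86.1 CPM against 145 and 160 CPM (log2 -1.02, SE 0.19, adjusted p = 0.00094). ITGA2 was at 3.50 and 34.2 CPM against 34.3 and 62.0 CPM (log2 -1.06, adjusted p = 0.048). FN1 was at 2460 and 2705 CPM against 3310 and 3634 CPM (log2 -0.48, SE 0.13, adjusted p = 0.040). The call of FN1 was lost without PI3Ki r1, either TGFB1 or either untreated library (adjusted p = 0.095 to 0.38), that of ITGB3 without either PI3Ki, either TGFB1 library or untreated r1 (0.066 to 0.50), that of ITGA2 without PI3Ki r1 or either untreated library (0.068 to 0.36) and that of ITGA3 without PI3Ki r2 (0.072). The call of ITGB1 held without any 1 library. ITGA3 and ITGB1 were also called by DESeq2, in cluster 10 alone, where 1.1% of 9481 genes were called, and with at least 50 primed cells per library, which leaves out PI3Ki r1. ITGA2 and ITGB3 lost their calls in all of these (adjusted p = 0.070 to 0.20 and 0.081 to 0.14), and FN1 in cluster 10 alone (0.074) and with at least 50 primed cells (0.16).

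**Figure D4:**
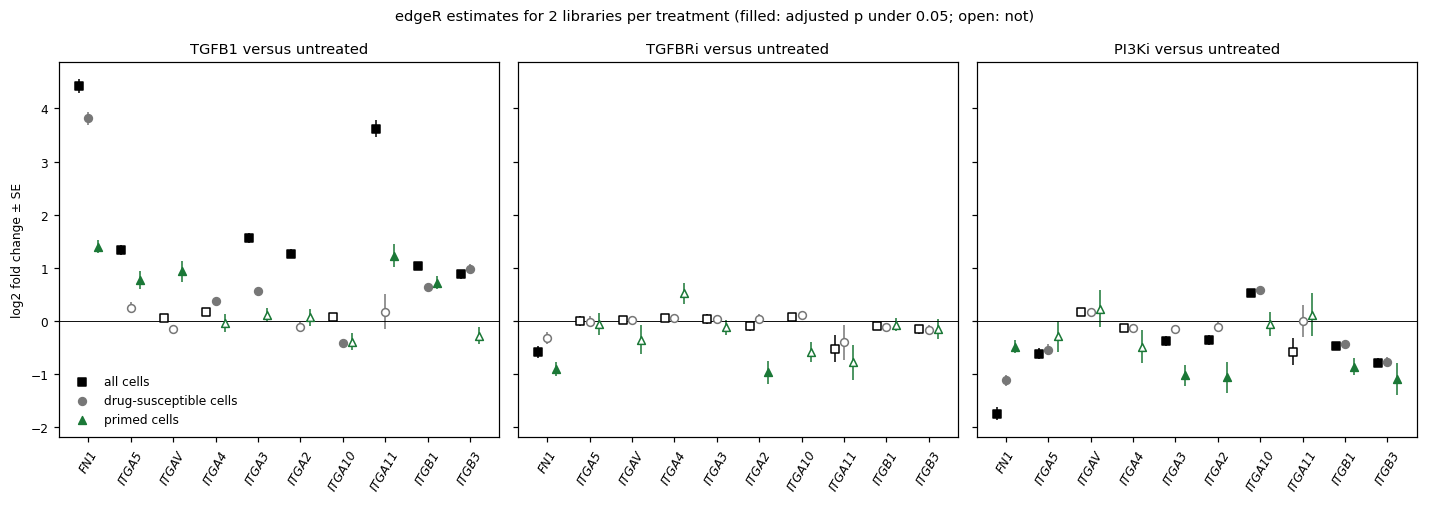
Log2 fold change against untreated, with its SE, of each member for TGFB1, TGFBRi and PI3Ki in all cells (black squares), drug-susceptible cells (grey circles) and primed cells (green triangles), filled where the adjusted p was under 0.05. FN1 stands highest with TGFB1 in all cells and in drug-susceptible cells (4.42 and 3.81) and ITGA10 alone has filled symbols above 0 with PI3Ki (0.52 and 0.58).

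Genes that work with the members were counted against the shares of all genes tested, of which 16.3% rose and 12.7% fell with TGFB1 in all cells. Among 25 adaptors of adhesion complexes, which join integrins to actin and to kinases, 16 rose and 2 fell with TGFB1 in all cells, led by LIMS2 (log2 1.57), the kinase SRC (1.18) and the tensin TNS3 (0.77), while TNS1 (-0.46) and TNS2 (-0.30) fell. Of 25 other matrix ligands tested (of 32), 19 rose and 2 fell, led by TGFBI (log2 7.06), COL5A1 (5.32) and COL1A1 (5.06), with LAMA1 (-0.60) and LAMC1 (-0.22) lower. Of 12 other integrin subunits tested (of 17), 4 rose and 4 fell. ITGA1, a further collagen receptor subunit, rose by 1.68, ITGB4 by 0.74 and ITGB5 by 0.54, while ITGB8, whose pair with ITGAV activates latent TGF-β, fell by 0.91, ITGAX by 0.85 and ITGA7 by 0.45. Of 6 fibronectin fibril partners tested (of 9), 5 rose, led by the syndecan SDC1 (3.03), TGM2 (2.38) and LTBP1 (2.31), and FBLN5 fell by 0.30. Of 10 TGF-β response genes 9 rose, among them PMEPA1 (6.08) and LTBP2 (3.92).

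With PI3Ki, 5.83% of all genes tested rose and 6.83% fell in all cells. Here 14 of 25 matrix ligands fell and 3 rose, with COL5A1 (-2.58), COL1A2 (-2.54) and COL1A1 (-2.48) lowest and CCN2 (0.46), MFGE8 (0.33) and LAMB2 (0.30) higher. Among the adaptors 3 of 25 fell (TNS3, VCL and ACTN1) and 2 rose (TLN2 and SHARPIN), shares near those of all genes. Of the other integrin subunits 4 fell, with ITGB8 (-0.88), ITGA1 (-0.83) and ITGB5 (-0.57) lowest, and ITGA7 (0.43) rose. LTBP1 (-1.35) and TGM2 (-1.19) fell among fibril partners and SDC2 (0.38) and FBLN5 (0.36) rose. With TGFBRi, where 1.09% of all genes rose and 1.45% fell, 4 of 10 TGF-β response genes fell, led by PMEPA1 (-2.35), ID1 (-2.14) and SKIL (-1.76). No adaptor passed, COL6A3 (-1.64) was lower and LAMA4 (0.27) higher among the ligands, ITGB8 (0.46) rose, and SDC2 (-0.64) and FBLN5 (-0.46) fell. In drug-susceptible cells alone, where 8.56% of all genes rose and 6.32% fell, TGFB1 raised 14 and lowered 1 of 22 ligands tested, and raised 6 and lowered 2 of 25 adaptors. In primed cells alone, where 6.21% rose and 7.09% fell, 8 of 21 ligands were higher and 4 lower with TGFB1, TGFBI (4.76) being the highest and LAMA4 (-2.44) the lowest. Of 21 adaptors 7 were higher and 1 lower, led by TLN2 (1.47), PTK2 (1.02) and PARVB (0.83). These counts set mostly cluster 4 cells with TGFB1 (3254 of 3334) against mostly cluster 10 cells without it (248 of 259).

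ATAC-seq, which reads open chromatin through transposase insertions, gave a second view of the same genes in sorted WM989 cells. The highest fold enrichment of a called peak within 1000 bases of the gene start was compared between sorts with limma on the log2 scale, with a library without a peak set to background. At the FN1 start the values were 23.3, 23.1 and 25.2 in Mix, 35.001, 32.6 and 32.3 in EGFR-High, 56.1, 42.4 and 32.4 in NGFR-High and 46.7, 31.2 and 33.7 in EGFR-NGFR-High. All 9 marker-high libraries lay above all 3 Mix libraries. The difference passed in NGFR-High (log2 0.68, SE 0.15, adjusted p = 0.042) and did not in EGFR-High (0.54, adjusted p = 0.15) or EGFR-NGFR-High (0.55, adjusted p = 0.10). The exact permutation test of 3 against 3 libraries gave p = 0.1 for each of the 3 sorts, the smallest value it allows. The NGFR-High call was lost without any 1 Mix library (adjusted p = 0.12, 0.11 and 0.085), without NGFR-High 1 (0.27) or 2 (0.13), and without EGFR-NGFR-High 3 (0.052). Each library pools many cells, so that more open cells and more accessible chromatin per cell cannot be told apart.

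At the other gene starts fewer differences appeared. FN1 was the 1 member called in NGFR-High and none was called in EGFR-High or EGFR-NGFR-High by limma, where 0.644%, 0.366% and 0.922% of 13663 gene starts were called in the same order (0.446%, 0.256% and 0.747% as higher). At an unadjusted p under 0.05, 2 members passed in EGFR-High (FN1 and ITGA3), 1 in NGFR-High (FN1) and 4 in EGFR-NGFR-High (FN1, ITGA3, ITGA11 and, lower, ITGB3), where 11.9%, 12.1% and 11.5% of gene starts passed. ITGA3 was at 36.3, 31.7 and 34.2 in EGFR-NGFR-High and 19.3, 25.0 and 22.7 in Mix, with no overlap (log2 0.54, SE 0.14, adjusted p = 0.077 by limma), a difference that passed without Mix 2 (0.042). A peak at the ITGA11 start was called in 3 of 3 EGFR-NGFR-High libraries (4.73 to 6.25), in 3 of 3 NGFR-High, in 1 of 3 EGFR-High and in 1 of 3 Mix libraries (5.32). The values at the ITGA2 start overlapped between the sorts, with 21.7 to 28.3 in the 9 marker-high libraries and 18.9 to 30.5 in Mix. Its RNA differed 22.3-fold between the pooled classes of the first experiment, and 6.48 to 21.4-fold within single wells. In NGFR-High, 4 members (FN1, ITGA5, ITGAV and ITGB1) had all 3 libraries above all 3 Mix libraries, where 24.1% of gene starts did. ITGA5 was at 17.9, 14.4 and 15.0 against 12.5, 11.3 and 12.1 in Mix, ITGAV at 99.4, 94.0 and 113 against 89.2, 78.7 and 85.7, and ITGB1 at 30.6, 29.3 and 29.6 against 22.4, 26.9 and 23.7. In EGFR-NGFR-High 3 members (FN1, ITGA3 and ITGA4) did, where 11.5% of gene starts did, with ITGA4 at 67.2, 61.9 and 57.1 against 54.7, 51.4 and 48.4. In EGFR-High 2 members (FN1 and ITGA3) did, where 3.72% of gene starts did. The exact permutation p was 0.1 for each of these, and ITGA5, ITGAV, ITGB1 and ITGA4 did not pass by limma on centred values (log2 0.24, 0.11, 0.14 and 0.20 in the sorts named). ITGB3 (45.0 to 76.7 in the 9 marker-high libraries against 53.2 to 67.4) and ITGA10 (12.7 to 25.9 against 15.1 to 20.2) overlapped Mix in every sort.

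**Figure D5:**
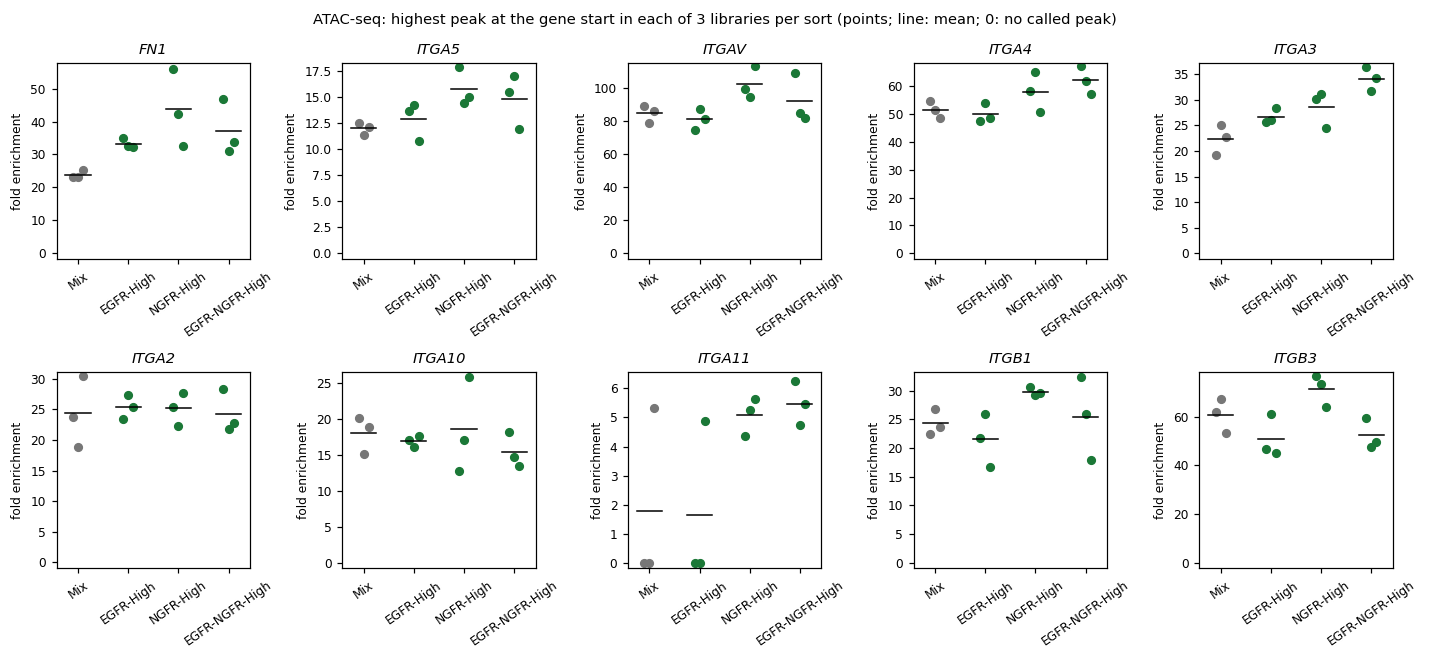
Fold enrichment of the highest called ATAC-seq peak within 1000 bases of each member's start in 3 libraries of each sort (Mix grey, marker-high sorts green), with a line at the mean and 0 where no peak was called. All 9 green FN1 points (31.2 to 56.1) lie above the 3 grey ones (23.1 to 25.2), and ITGA2 shows no such separation.

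Away from the starts, 121 regions with a peak lay in the members or within 20000 bases of them. Of these, 7 (5.79%) had a peak in all 3 EGFR-NGFR-High and in no Mix library, against 4.80% of all 151848 regions, and 1 (0.826%) had the reverse pattern, against 0.846%. The members' share was thus near that of all regions, and the regions are given as a description. The region upstream of ITGA3, whose sequence is printed above, spans chr17:50047366-50047992 and its middle lies 8431 bases before the start. It had fold enrichments of 20.8, 13.2 and 12.4 in EGFR-NGFR-High and peaks in 3 of 3 NGFR-High and 2 of 3 EGFR-High libraries. The region upstream of ITGA5, at chr12:54423139-54423532 with its middle 4069 bases before the start, had 12.8, 9.45 and 6.45 in EGFR-NGFR-High and peaks in 3 of 3 EGFR-High and 2 of 3 NGFR-High libraries.

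The ITGA11 region at chr15:68354896-68355345 lies in an intron and had 11.9, 6.62 and 4.47 in EGFR-NGFR-High, a peak in 1 of 3 NGFR-High and none in EGFR-High libraries. The printed middle of this region holds 3 AP-1 matches, that of the ITGA5 region 2 and that of the ITGA3 region 1. Over all regions 20.2% hold at least 1 such match in their middle 300 bases, against 49.3% of the 7290 regions open in all EGFR-NGFR-High and no Mix libraries and 13.6% of the 1285 regions with the reverse pattern. The other regions of this kind were 2 in introns of ITGA2 (1 with 1 match and 1 with none), 1 in an intron of ITGA4 (none) and 1 downstream of ITGA5 (1 match), at chr12:54383132-54383508, where GPR84-AS1 and ZNF385A overlap. Of the 7 member regions 5 thus hold a match. The 1 region open in Mix alone was in an intron of ITGA11, at chr15:68304855-68305099, and holds no AP-1 match. A match is a run of letters and does not show that a factor was bound.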

How the data were processed

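The deposited scRNA-seq matrices hold whole UMI counts that the authors obtained by running Cell Ranger against hg38, and the cells analysed are those with the authors' labels, which passed their limits on detected genes and mitochondrial reads. Classes, clusters, treatments and replicates were taken from the authors' cell labels, no other cell filter was applied and no doublet caller was run. For ATAC-seq the authors deposited MACS2 2.1.1.20160309 peak lists per library, after Bowtie2 2.3.4.1 and SAMtools 1.1, whose fold enrichment is a ratio over local background and was used here. The −log10 q-values that the authors' peak caller wrote ranked the peaks in 1 alternative. The submitters' processing notes name these tools, and the Cell Ranger version is not given in the sources used here. The lists held 213412 to 271153 peaks per library.

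Counts were summed per class, cluster, well or library and scaled to CPM. Intervals are exact Poisson intervals at 95% and cover counting error only. Tests used edgeR 4.0.16 in R 4.3.3 (filterByExpr, TMM factors between 0.93 and 1.07, terms for treatment and replicate, 3 residual degrees of freedom), two-sided. All 8 libraries were fitted together, with at least 20 primed cells in a library for the primed class. The SE is the log2 fold change divided by the square root of F. Interaction p-values come from a fit with library as a block and 4 residual degrees of freedom. Because edgeR's estimated prior degrees of freedom were infinite there, they amount to normal tests of the log2 difference over its SE, and limma-voom, with a finite prior (7.57), was run beside it. Cells of the same replicate number came from 1 well, and their libraries deviated together (r between 0.25 and 0.36 over 18431 genes), so replicate was a term. ATAC-seq used limma 3.58.1 on centred log2 values at gene starts with a peak in at least 3 of 12 libraries. Gene starts are from GENCODE and sequences from RefSeq GRCh38.p14, whose promoter table matched 8 of 10 members and not ITGA3 and ITGB3.

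The 2 replicates per treatment are called r1 and r2 in the cell labels but Mix and Primed in the sample labels, and they were not matched, so that r1 and r2 are used as names only. The members and gene lists were chosen with earlier results of these data known. All members were named, with up to 3 genes per direction of each of 5 lists by size among those past the threshold, and 5 genes most like FN1 and ITGB3, and 1 gene of the lists is not reported here. The fits were tested on simulated data. Alternatives were DESeq2 1.42.0, its size factors, no filter, no replicate term, G1 cells only, other clusters or cell minimums, fewer libraries, other peak windows and peak numbers, and other means and scalings.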

Additional observations from a re-analysis of the deposited data

Results flagged for a closer look

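The effect of TGFB1 differed between primed and drug-susceptible cells of the same libraries for 6 members, by the edgeR test of the interaction with Benjamini-Hochberg adjustment. The difference, taken as the log2 fold change in primed minus that in drug-susceptible cells, was -2.32 for FN1 (SE 0.09), -1.12 for ITGB3 (SE 0.16, adjusted p = 7.26e-11) and -0.37 for ITGA3 (SE 0.11, adjusted p = 0.0067). It was 1.19 for ITGAV (SE 0.18, adjusted p = 4.38e-09), 1.18 for ITGA11 (SE 0.41, adjusted p = 0.043) and 0.59 for ITGA5 (SE 0.17, adjusted p = 0.0059). The calls of ITGA3 and ITGA11 were lost without either TGFB1 or either untreated library (adjusted p = 0.10 to 0.51), that of ITGA5 was lost without TGFB1 r2 (0.33) or untreated r2 (0.25), and all of these calls were lost with limma-voom, while FN1, ITGB3 and ITGAV kept theirs in these fits. The edgeR p-values of this fit rest on a spread pooled over all genes. FN1 rose in both classes as a whole, from a drug-susceptible mean of 47.9 ± 5.89 CPM to 673 ± 60.03 CPM and from a primed mean of 3472 ± 229 CPM to 8664 ± 269 CPM (SD, n = 2 libraries). ITGB3 rose in drug-susceptible cells and did not pass in primed cells. Primed cells lay mostly in cluster 4 with TGFB1 and in cluster 10 without. The clusters were made from these same counts, so the counts in part set which TGFB1 cells lie in cluster 10. Values in cluster 10 alone, an alternative chosen after seeing the data, describe those cells and cannot measure the TGFB1 effect on primed cells. There FN1 was lower in the TGFB1 cells (log2 -1.20, adjusted p = 0.00033 by edgeR). The interaction was -2.77 for ITGA11 and -1.19 for ITGA5, opposite in sign, and 0.033 for ITGAV and -0.54 for ITGB3, none of these 4 being called.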

How the results depend on the processing

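Of the counts of members called, those for TGFB1 in all cells (7 to 8) and in drug-susceptible cells (5 to 7) and for PI3Ki in drug-susceptible cells (4 to 5) stayed within 1.5 times of the reported value when single libraries were left out. The ranges without 1 library were 0 to 2 for TGFBRi in all cells, 4 to 8 for PI3Ki in all cells, 0 to 2 for TGFBRi in drug-susceptible cells, 3 to 6 for TGFB1 in primed cells, 1 to 2 for TGFBRi in primed cells, 2 to 5 for PI3Ki in primed cells, 3 to 6 for the interaction, and 0 for EGFR-High, as reported, and 0 to 1 for NGFR-High and for EGFR-NGFR-High. With limma-voom, chosen after seeing the data, 3 members passed for the interaction, and with cluster 10 as the primed class 4 passed, where the difference was -1.19 for ITGA5 and -2.77 for ITGA11. The share of all genes called is given above for the cluster 10 fits of TGFB1, PI3Ki and the interaction, and not for the other alternatives. A lower count of members there may therefore go with fewer calls over all genes. By DESeq2 the counts were 0 for TGFBRi in all cells, 1 for TGFBRi in primed cells and 3 for PI3Ki in primed cells. Without the replicate block they were 0 for TGFBRi and 3 for PI3Ki in all cells, 3 for PI3Ki in drug-susceptible cells, and 1 for TGFBRi and 2 for PI3Ki in primed cells, and the log2 fold change of ITGA2 with TGFB1 in primed cells was -0.026. With a replicate block in the ATAC-seq fit, whose same-numbered libraries correlated between -0.05 and 0.11, FN1 in NGFR-High kept its call (adjusted p = 0.025). Without a filter on low counts 1 member, FN1, passed for TGFBRi in drug-susceptible cells. With at least 50 primed cells 2 members passed for PI3Ki in primed cells, and with the 50000 highest-ranked peaks 0 passed for NGFR-High. In cluster 10 alone, chosen after seeing the data and made from these same counts, 3 members passed for TGFB1, 0 for TGFBRi and 2 for PI3Ki. There the TGFB1 log2 fold changes were -1.20 for FN1, -0.95 for ITGA5, -0.11 for ITGAV, -1.37 for ITGA3, -2.69 for ITGA2, -2.65 for ITGA11, -0.18 for ITGB1 and 0.41 for ITGB3. Leaving out 1 library, TGFB1 in primed cells gave -0.038 to 0.25 for ITGA3 and -0.14 to 0.40 for ITGA2. Without cluster 3, FN1 with TGFBRi in drug-susceptible cells was 0.011. The causes were not tested. In the 25 primed cells of PI3Ki r1 ITGA2 rested on 1 UMI, ITGA11 on 3, ITGA5 on 5 and ITGB3 on 6, and FN1 on 702, and ITGA11 had 14 to 37 UMIs per library in drug-susceptible cells.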
